A study of Mus musculus with 8 samples.

Results

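The regions described here are the stretches of open chromatin that were listed at every chromate dose in Hepa-1c1c7 mouse hepatoma cells and that lay between genes. Regions of the 3 deposited lists (0.1, 0.5 and 1 µM) that overlapped by at least 1 bp were merged. A merged region was kept if it held a region of each list, was not on chromosome 15, had its midpoint outside every protein-coding gene, and lay more than 1 kb from the start or end of any annotated gene, noncoding genes included. This left 1779 of the 21051 merged regions of the series. They were 28.1% of the 6331 regions off chromosome 15 that were listed at all doses, which in turn were 35.4% of all merged regions there. The members were chosen by the listed positions, that is by being called at each dose, so their widths, scores and overlaps are given as descriptions, with no test.

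Hepa-1c1c7 is an established mouse liver tumour line. Cultures were exposed for 72 h to potassium chromate, which supplies hexavalent chromium, at 0.1, 0.5 or 1 µM, and the controls are labelled 0 µM, with 2 libraries per dose and 8 in all. Open chromatin was mapped by ATAC-seq, where a transposase inserts sequencing adapters into DNA not wrapped in nucleosomes. The deposited data are 1 list of regions per treated dose, and the name of each list also names the control.

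Open chromatin between genes holds many of the elements that act on promoters from a distance. Enhancers are bound by combinations of transcription factors and can act over long stretches of DNA, insulators bound by CTCF limit which promoters they reach, and starts of noncoding RNAs lie there as well. In liver cells, factors such as FOXA2, C/EBP and HNF4A bind enhancers of this kind. An ATAC-seq region alone does not tell these kinds of element apart.

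The lists held 14401, 11130 and 15894 regions in order of dose, of which 12.7%, 16.5% and 11.5% fell in the merged regions between genes. Depth is unknown, as no read numbers come with the lists. With 1 list per dose there is no replicate error, so no comparison below has a test, and by their names all lists share the control. The libraries of 1 µM also carry another prefix in their labels, which cannot be told apart from that dose. The sources used here do not state whether a listed region was more open than in control cells. Of 10 hepatocyte marker genes, 1 (Foxa2) had an all-dose region at a gene end, and Alb, Afp, Ttr and Hnf4a had none. The 16 markers of immune, neuronal, and stellate, fibroblast or endothelial cells had none either. Over all protein-coding genes off chromosome 15 the share was 13.4%, so counts this small tell no cell type apart.

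Sequence could be read only where a region met a RefSeq promoter window, the 300 bases around a transcription start (GRCm38.p6, to which mm10 corresponds). This was so for 5 of the 1779 regions. All 5 windows belong to internal starts of long noncoding RNA genes, since the rule keeps regions away from the outer ends of genes. The merged region, which spans the entries of all lists, covered the start site in 4 of the windows. Whether the entry of each list reached it was not determined. Of these 4, the 3 below are shown as examples that hold different motifs. Each is printed 5′ to 3′ on the strand of the gene, with the bases inside the merged region in capitals.

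Gm34434, chr3:144381099-144381398, minus strand: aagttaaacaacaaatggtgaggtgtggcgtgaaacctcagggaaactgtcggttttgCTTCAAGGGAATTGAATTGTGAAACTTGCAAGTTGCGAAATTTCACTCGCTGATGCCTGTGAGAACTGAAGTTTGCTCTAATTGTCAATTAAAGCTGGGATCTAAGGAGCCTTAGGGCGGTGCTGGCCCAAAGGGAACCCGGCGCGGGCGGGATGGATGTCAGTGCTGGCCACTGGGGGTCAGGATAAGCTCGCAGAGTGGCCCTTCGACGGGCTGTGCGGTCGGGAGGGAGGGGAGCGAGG
Gm28497, chr1:69433412-69433711, plus strand: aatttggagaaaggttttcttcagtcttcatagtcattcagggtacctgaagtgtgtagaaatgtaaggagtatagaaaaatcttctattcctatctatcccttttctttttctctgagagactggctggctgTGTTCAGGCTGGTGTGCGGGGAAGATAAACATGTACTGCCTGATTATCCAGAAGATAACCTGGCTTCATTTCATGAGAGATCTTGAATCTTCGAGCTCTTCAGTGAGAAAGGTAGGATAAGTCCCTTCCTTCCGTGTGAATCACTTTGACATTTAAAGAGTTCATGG
Gm41485, chr16:87612372-87612671, minus strand: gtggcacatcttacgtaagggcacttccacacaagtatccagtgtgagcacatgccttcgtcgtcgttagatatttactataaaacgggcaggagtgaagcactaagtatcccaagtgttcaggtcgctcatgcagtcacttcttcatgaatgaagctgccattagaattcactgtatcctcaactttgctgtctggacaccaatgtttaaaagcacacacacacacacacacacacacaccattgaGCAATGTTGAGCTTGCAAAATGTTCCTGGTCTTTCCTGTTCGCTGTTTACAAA

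The region at Gm34434 (chr3:144380965-144381340) covered 242 bases of the window and scored 36, 27 and 51 in order of dose. Hs2st1, which encodes a sulphotransferase of heparan sulphate, is its nearest protein-coding gene at 48.5 kb. The window of Gm34434 has a GC content of 54.3%, against a median of 52.7% over 32851 promoter windows. The region at Gm28497 (chr1:69433545-69434328) covered 167 bases, scored 49, 18 and 60, and lies 97.3 kb from Ikzf2, a transcription factor gene of the Ikaros family. Its window is poorer in GC (40.7%). The region at Gm41485 (chr16:87611326-87612424) covered the last 53 bases of its window, scored 42, 7 and 47, and lies 16.5 kb from Map3k7cl. Its widths of 1000, 364 and 559 bp differ far more between the lists than those at Gm34434 (344, 298 and 376 bp).

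The other 2 windows, of 5930403N24Rik and Gm34907, met a region over 66 and 56 bases. The region at 5930403N24Rik (scores 27, 12 and 30) lies 2.34 kb from Marcks, which encodes a substrate of protein kinase C. The region at Gm34907 (scores 21, 9 and 17) lies 43.4 kb from Scel.

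The windows were searched on both strands for 18 short motifs, with positions counted from 1 at the 5′ end of the window. Inside the capitals of Gm28497 lies TGAATCA, which matches TGANTCA, the pattern searched for AP-1. This pattern allows any base in the middle and fits on both strands. That loose pattern is found in 7.81% of all promoter windows. The capitals of Gm28497 also hold AGATAA, the GATA motif, at positions 156 and 186 of the window (11.2% of all windows). Within the capitals of Gm41485 lie TGTTTAC, the forkhead motif (3.65% of windows), and TTGCAAAA, a match to the C/EBP motif TTGCNNAA (10.8%). Gm34434 holds TTGCGAAA for the C/EBP motif and, at positions 173 and 204, GGGCGG for SP and KLF factors (35.7%). One further match in each of Gm34434 (TGGCGTG for the AHR motif TNGCGTG, 5.07% of windows) and Gm41485 (C/EBP on the other strand) lies wholly or partly outside the region. In the windows not printed, 5930403N24Rik holds GGGCGG at 4 positions, the last of them inside the region, and Gm34907 holds the GATA motif on the other strand inside the region and GGGCGG outside it. The CTCF motif, found in 2.43% of all windows, had no match in these 5. A match is a run of letters and not a bound site.

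The regions between genes were mid-sized and, like all-dose regions as a whole, ranked above the middle of their lists. In the 0.1 µM list their widths ran from 199 to 2010 bp with a median of 421 bp, in the 0.5 µM list from 199 to 1895 bp with a median of 334 bp, and in the 1 µM list from 199 to 2228 bp with a median of 432 bp. The score, the authors' own number per region whose scale is not stated, ran from 4 to 194 (median 18), from 4 to 127 (median 13) and from 4 to 297 (median 22). Scores were therefore turned into percentiles within each list, 100 being the highest. The median percentile was 72.3, 63.6 and 74.1 in order of dose. All-dose regions off chromosome 15 had the same medians, so these ranks are not particular to regions between genes. The ranges of the lists overlap almost wholly, and the 0.5 µM list has the lowest median on each measure. The whole lists also had their lowest medians of width and score at 0.5 µM. These were 339, 324 and 353 bp and scores of 11, 10 and 13 in order of dose.

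**Figure D1:**
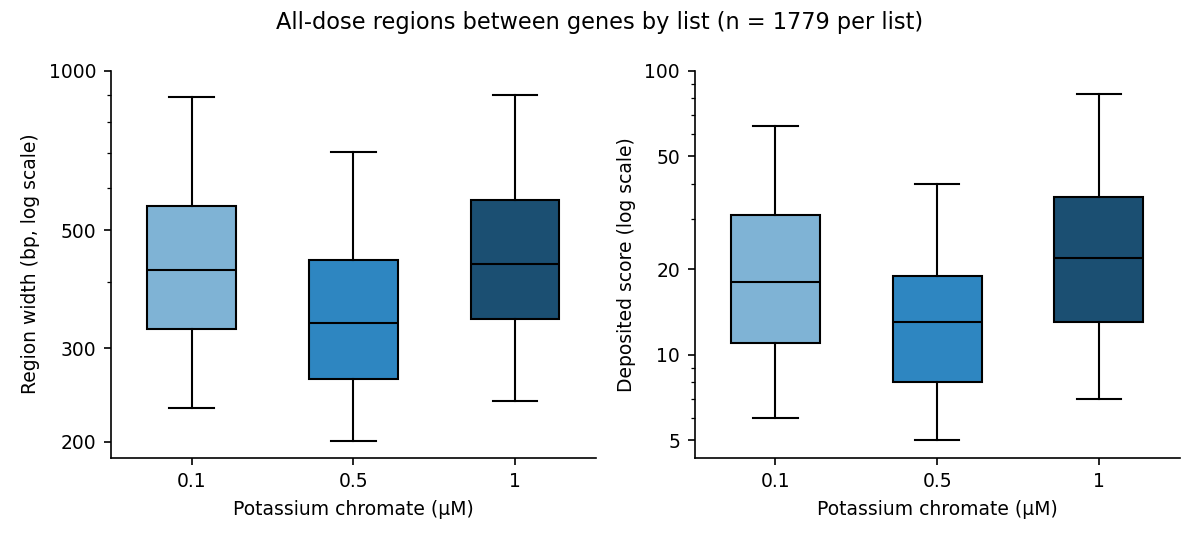
Widths (left, bp) and deposited scores (right), both on log axes, of the 1779 all-dose regions between genes in each list. Boxes span the quartiles with the median as a line, and whiskers run from the 5 to the 95 percentile of regions. The medians at 0.5 µM (334 bp, score 13) lie below those at 0.1 µM (421 bp, 18) and 1 µM (432 bp, 22). The whole 0.5 µM list has the lowest medians of the lists too (324 bp, score 10).

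Region by region, the 0.5 µM entry was the narrowest of the 3 in 1132 cases, or 63.6%. Over all 6331 all-dose regions off chromosome 15 this share was 62.2%, so the regions between genes sit near that background. The 1 µM entry was the widest in 808 cases (45.4%, against 49.3% over all). The median ratio of width was 0.816 for 0.5 against 0.1 µM and 1.02 for 1 against 0.1 µM.

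Set beside the other all-dose regions, those between genes resembled the 1839 inside protein-coding genes and were narrower than the 2477 at ends of protein-coding genes. The merged regions had a median width of 515 bp between genes, 530 bp inside genes and 702 bp at gene ends. Their median percentiles inside genes were 69.9, 59.5 and 72.6, and at gene ends 72.3, 67.3 and 76.9. The other 236 all-dose regions lay at ends of noncoding genes only, with a median width of 608 bp. No test of these differences was made, since regions of 1 list are not replicates.

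Some 336, 208 and 338 regions between genes ranked at or above the 90 percentile of the score in order of dose. These were 18.9%, 11.7% and 19% of them, against 20%, 14.3% and 21.1% of all all-dose regions off chromosome 15. In all lists at once, 135 regions (7.59%, against 8.72%) ranked that high. Inside genes the shares were 17.1%, 11.7% and 17.6%, and 7.07% in all lists at once. The shares between genes thus lay near the background and near those inside genes.

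Between genes the centres of the 3 entries lay within a median of 71 bp of each other, and within 50 bp for 568 regions (31.9%). Inside genes the median was 80 bp and the share 25.8%, and at gene ends 102.5 bp and 17.8%. The stretch common to all lists had a median length of 280 bp, or 58.1% of the merged region. In 1667 cases each list had exactly 1 entry in the merged region, and in 112 at least 1 list had several. In 13 the leading entries of the lists shared no base and were joined only through their neighbours.

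Near the limits of the rule the values were alike on both sides. The 39 regions at 1 to 1.25 kb from a gene end had a median width of 539 bp and median scores of 16, 14 and 24. The 47 all-dose regions outside protein-coding genes at 0.75 to 1 kb, just too close to be kept, had 555 bp and 18, 12 and 20. For the overlap, 27 regions had a pair of lists whose entries shared under 50 bp, while 10 of 1538 regions between genes listed at 2 doses had an entry of the missing list within 100 bp.

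The widths differed most between lists at chr6:128838205-128840379, 8.75 kb from BC035044, where they were 831, 231 and 2105 bp. They differed least at chr6:21747685-21747988, 18 kb from the potassium channel gene Kcnd2, at 286, 291 and 291 bp. The median difference between the widest and the narrowest entry was 158 bp. Scores were over 4 times apart between the highest and the lowest list in 201 regions (11.3%), against 12.7% of all all-dose regions off chromosome 15. That share was 7.09% among the 832 regions under 500 bp and 25.2% among the 111 regions of 1000 bp or more. Scores of wide regions are for this reason not read as differences between doses.

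The 10 regions with the best mean percentile over the lists lay 3.05 to 318 kb from the nearest protein-coding gene. Their merged widths ran from 808 to 1588 bp. Most were wide regions of 1000 bp or more, which made up 6.24% of all regions between genes. First stood chr10:118103093-118104126, 37.9 kb upstream of Mdm1, a gene of a centriole and microtubule protein, with scores of 177, 116 and 248. Next came chr13:84347661-84348990, 52.4 kb from Tmem161b and inside the noncoding gene Gm41011, with 188, 108 and 193. The third, chr16:88710611-88711418, lies 3.05 kb upstream of 2310061N02Rik, beside a cluster of keratin-associated protein genes, and scored 135, 127 and 192. All 3 were at or above the 99.5 percentile in every list, which the choice by mean percentile favours.

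Sema6d, which encodes a transmembrane semaphorin that guides axons, was the nearest gene of a pair of them. They lie 51.3 kb and 191 kb downstream of it, at chr2:124718510-124719668 (scores 126, 125 and 175) and chr2:124858141-124859405 (133, 74 and 167). Slc24a5, a gene of melanosome ion exchange, bounds the same gap on the other side. A region 81.8 kb upstream of Tet2, which encodes an enzyme that oxidises methylated cytosine, at chr3:133626114-133627701, scored 160, 73 and 178. It was the widest of the 10 in each list, at 1545, 1315 and 1235 bp.

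The remaining 4 lie near Adcyap1, the gene of the neuropeptide PACAP (174 kb, scores 183, 80 and 170), Vmn2r87, a vomeronasal receptor gene (44.8 kb, 121, 95 and 178), Tnfrsf11a, the gene of the receptor RANK (17.6 kb, 142, 83 and 169), and Tenm4, a teneurin gene (318 kb, 156, 61 and 144). Only Mdm1, Tmem161b and Tet2 among these genes had an all-dose region at one of their own ends.

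**Figure D2:**
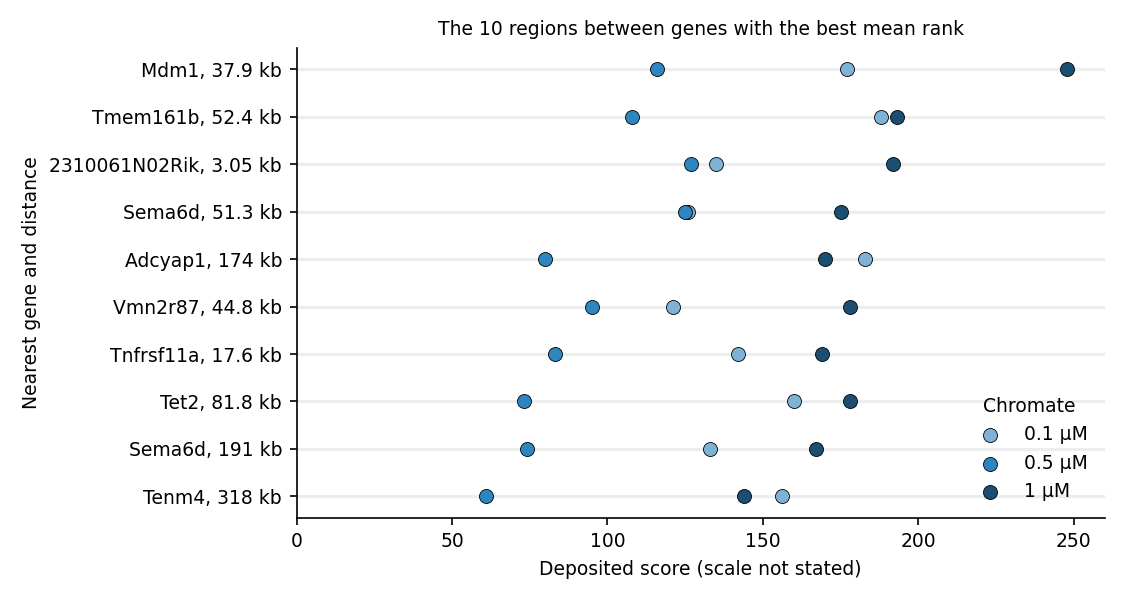
Deposited scores (horizontal axis, scale not stated) of the 10 regions between genes with the best mean percentile, 1 point per dose, named by their nearest protein-coding gene and the distance to it. Scores at 0.5 µM run from 61 to 127 and those at 1 µM from 144 to 248.

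Distance to the nearest protein-coding gene had a median of 40.1 kb, with quartiles of 13.3 and 117 kb. Within 50 kb lay 995 regions (55.9%), beyond 100 kb 505 (28.4%) and beyond 500 kb 83 (4.67%). The strand of the nearest gene was known for 1332 regions, none of them on chromosome 18. Of these, 758 (56.9%) lay on the upstream and 574 on the downstream side of that gene. Within 10 kb these were 141 and 115. The rule sets the lower limit of 1 kb, but not the spread above it.

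The farthest lay in gene deserts. The region at chr14:82065187-82065708 is 2040 kb from Olfm4 and scored 26, 20 and 55. The one at chr1:113800773-113801249 is 1880 kb from Cntnap5a (21, 9 and 28), and chr14:91326622-91327145 is 1690 kb from the protocadherin gene Pcdh9 (58, 34 and 20). A pair on chromosome 8 lies between Slc10a2, the ileal bile acid transporter gene, and Efnb2, the ephrin-B2 gene, at 1710 kb from the former (14, 11 and 10) and 1680 kb from the latter (27, 12 and 27). The median percentiles were 63.6, 59.5 and 70.0 at 1 to 5 kb, 80.9, 67.3 and 79.2 at 250 to 500 kb, and 76.5, 54.8 and 75.6 beyond 500 kb. The band nearest to genes thus had the lowest medians at 0.1 and 1 µM, and the farthest band the lowest at 0.5 µM.

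Genes next to these regions were often listed at their own ends. The 1779 regions had 1173 distinct nearest genes, of which 429 (36.6%) had an all-dose region within 1 kb of an end. Over all 20855 protein-coding genes off chromosome 15 this held for 13.4%. The share was 34.1% of 822 genes nearest to 1 region, 41.8% of 213 nearest to 2, and 43.5% of 138 nearest to 3 or more, against 12.1% of 19682 genes nearest to none. The regions that set both measures come from the same lists, and no test was made.

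The same order was seen among genes with gaps of like length. Genes nearest to a region had a median of 276 kb of gap on their sides together, and genes nearest to none 34.1 kb. Among genes with under 50 kb of gap, 38.6% of 145 with a region and 12.3% of 11911 without one were listed at an end. Among genes with 500 kb or more, the shares were 32.8% of 409 and 14.5% of 924. Genes were not matched by chromosome, and the number of all-dose regions ran from 896 on chromosome 1 to 90 on X.

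Counted by region, the nearest gene was listed at an end for 697 regions (39.2%). For 1773 regions with a gene on each side, the nearest gene was listed for 39.1% and the gene on the other side for 30.3%. Only the nearest was listed for 485, only the other for 329, both for 209 and neither for 750. Regions between genes that were listed at 1 dose or at 2 doses had a listed nearest gene in 31.4% of cases each (2740 and 1538 regions). By distance, the share was 46.2% at 50 to 100 kb and 21.7% beyond 500 kb, as the plot of distance bands shows.

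**Figure D3:**
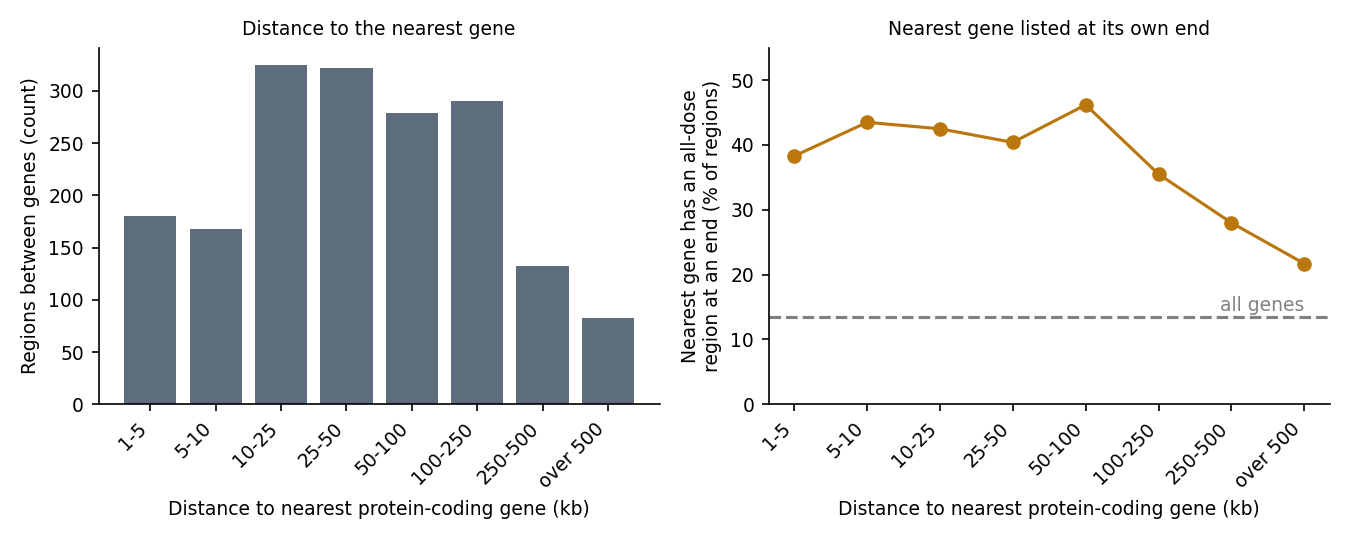
Left, number of all-dose regions between genes by distance to the nearest protein-coding gene (kb). Right, percentage of them whose nearest gene has an all-dose region within 1 kb of an end. The dashed line marks 13.4%, the share over all protein-coding genes off chromosome 15. The line counts each gene once, whereas the points count a gene for each of its regions. Regions between genes listed at 1 or at 2 doses had a share of 31.4% each. The share lies between 35.5% and 46.2% up to 250 kb and falls to 21.7% beyond 500 kb.

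By gap between protein-coding genes, 1072 of 18733 gaps (5.72%) held at least 1 region. The density was 1.47 regions per Mb in gaps up to 50 kb, 1.65 from 50 to 200 kb, 1.48 from 200 to 500 kb, 0.977 from 500 to 1000 kb and 0.693 in longer ones. Long gaps were therefore sparser per Mb, although 51.1% of those over 1000 kb held a region. Of all merged regions in the gaps, those listed at all doses made up 26.7% in gaps up to 50 kb and 29.2% to 32.2% in each longer class.

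**Figure D4:**
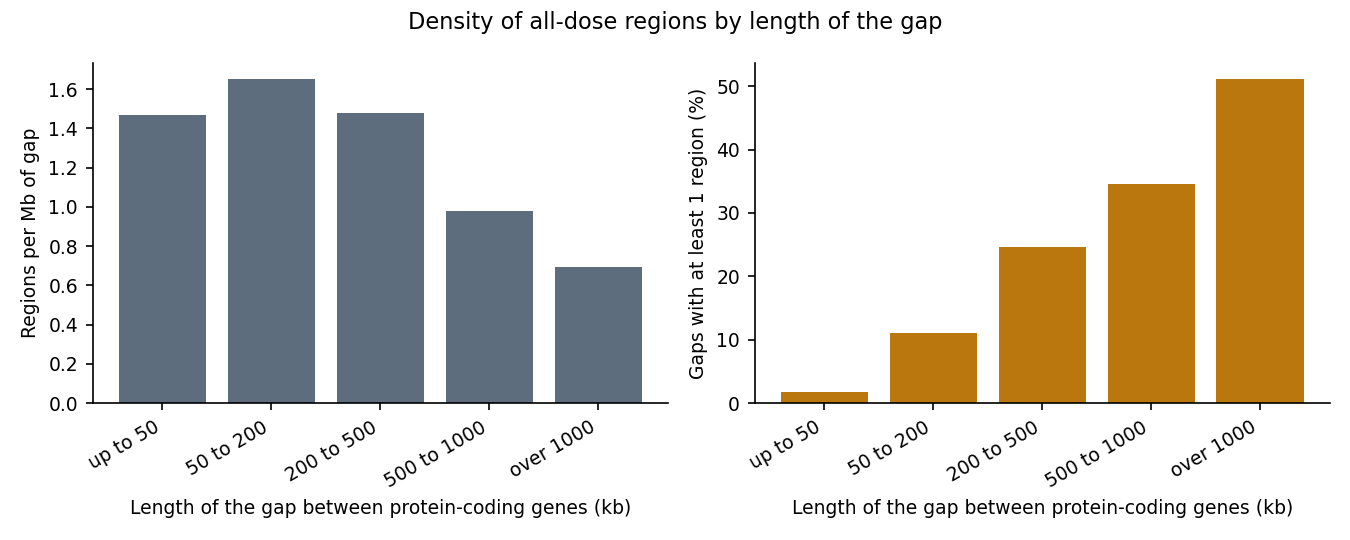
Left, all-dose regions between genes per Mb of gap. Right, percentage of gaps that hold at least 1 of them, both by the length of the gap between neighbouring protein-coding genes (kb), chromosome 15 left out. The density runs from 1.65 per Mb at 50 to 200 kb to 0.693 per Mb in gaps over 1000 kb, while the share of gaps with a region runs from 1.74% to 51.1%.

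Chromosomes differed widely. Chromosome 1 held 291 of the regions (2.48 per Mb of gap), chromosome 3 held 224 (2.13) and chromosome 18 held 111 (2.04). Chromosome X held 16 (0.128 per Mb), chromosome 12 held 30 (0.383) and chromosome 14 held 35 (0.452). All-dose regions of every location were uneven as well, so this spread is not particular to regions between genes. They numbered 896, 622 and 340 on chromosomes 1, 3 and 18, and 90, 133 and 106 on X, 12 and 14. As a share of the all-dose regions of a chromosome, those between genes ran from 17.8% on X to 36.9% on chromosome 16.

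Several regions often shared a nearest gene. Of the 1173 genes, 351 were nearest to 2 or more and 31 to 5 or more. The 16 genes with 6 or more are named here because of these counts. Genes nearest to 3 or more regions had a median of 679 kb of gap on their sides, against 37.2 kb over all genes.

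Foxa2 encodes a pioneer factor of liver and endoderm, able to bind DNA wrapped in nucleosomes. It had 8 regions, 6 on its upstream and 2 on its downstream side, from 29.3 to 299 kb away. The highest ranked, chr2:148184671-148185434, lies 138 kb upstream and scored 72, 97 and 143. The farthest, 299 kb downstream at chr2:147743847-147744612, scored 61, 35 and 117, and the nearest, chr2:148013207-148013899, scored 53, 28 and 66. Another 4 of the 8 had scores of 9 to 21 in every list, so a few strong sites stand beside weak ones. Foxa2 also had an all-dose region at its own end.

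Sox9, the gene of a factor of bile duct and progenitor cells, had 7 regions, and Slc39a11, a zinc transporter gene at the other end of the same 457 kb gap, had 6. This gap held 11 of them, the largest number in any gap, together with 10 regions listed at fewer doses. Near Sox9 the region at 151 kb (chr11:112938049-112938586) scored 59, 29 and 52, and that at 23.9 kb 52, 33 and 32. Closer to Slc39a11, a group of 3 linked regions lies inside the noncoding gene 2610035D17Rik. Its strongest member, chr11:113062878-113063770, scored 70, 54 and 103, and the other members 43, 41 and 79 and 24, 21 and 66. Another linked group of 3, at 211 to 221 kb from Sox9, scored from 12 to 48. Sox9 was listed at an end of its own at all doses, and Slc39a11 was not.

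Sall1, the gene of a zinc finger repressor, had 7 regions within 89.8 kb, 3 of them within 11.6 kb. The strongest, chr8:89015416-89015915, scored 39, 38 and 38 and the others up to 28. Irf2bp2, a corepressor gene, had 7 at 20.4 to 93.0 kb, with scores of 5 to 40. Lmo4, the gene of a LIM-domain cofactor, had 6 at 2.51 to 130 kb, the farthest having the best mean percentile (61, 29 and 56). Maf, a bZIP factor gene, had 6 at 64.4 to 390 kb, with scores of 4 to 38. All 4 of these genes had an all-dose region at an end.

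S1pr1, a receptor of sphingosine 1-phosphate, had the largest number, 9, at 5.77 to 135 kb, none of which scored above 36. Adgrl4, an adhesion receptor gene expressed in endothelium, had 8, all upstream at 54.2 to 321 kb. One of them, chr3:151351356-151352662, scored 194, 10 and 297, the highest score of all regions between genes at 0.1 and 1 µM beside a low one at 0.5 µM. Its widths of 1241, 1002 and 1078 bp place it among the wide regions, whose scores are not read as differences between doses. Pkdcc, the gene of a secreted kinase, also had 8 (scores of 5 to 38). Ptgs2, which encodes the inducible cyclooxygenase COX-2, had 6 within 56.7 kb, the nearest at 7.38 kb downstream with scores of 50, 30 and 94. Adgrl4, Pkdcc and Ptgs2 had no all-dose region at an end of their own, and S1pr1 had one.

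Ptbp2, a splicing regulator gene, had 7 regions, all upstream at 10.3 to 405 kb. Those at 106 kb (105, 35 and 106) and 391 kb (90, 51 and 91) were far stronger than the nearest (9, 7 and 9). Rap2b, a small GTPase gene, had 6, with the strongest at 20.2 kb upstream (69, 47 and 109). N6amt1, a methyltransferase gene, had 6 upstream, the nearest (5.85 kb) being the strongest at 49, 47 and 84. Robo1, an axon guidance receptor gene, had 6 at 46.6 to 516 kb, and Lyplal1, which shares a gap with Tgfb2, had 6 at 18.3 to 191 kb. Among the genes with 6 or more regions, the best-ranked region was the nearest one at N6amt1, Ptgs2, Maf and Robo1. At the others, such as Ptbp2, Rap2b and Foxa2, it was not. The map of regions around genes shows the 8 genes with most of them, Ptbp2 and Foxa2 included.

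**Figure D5:**
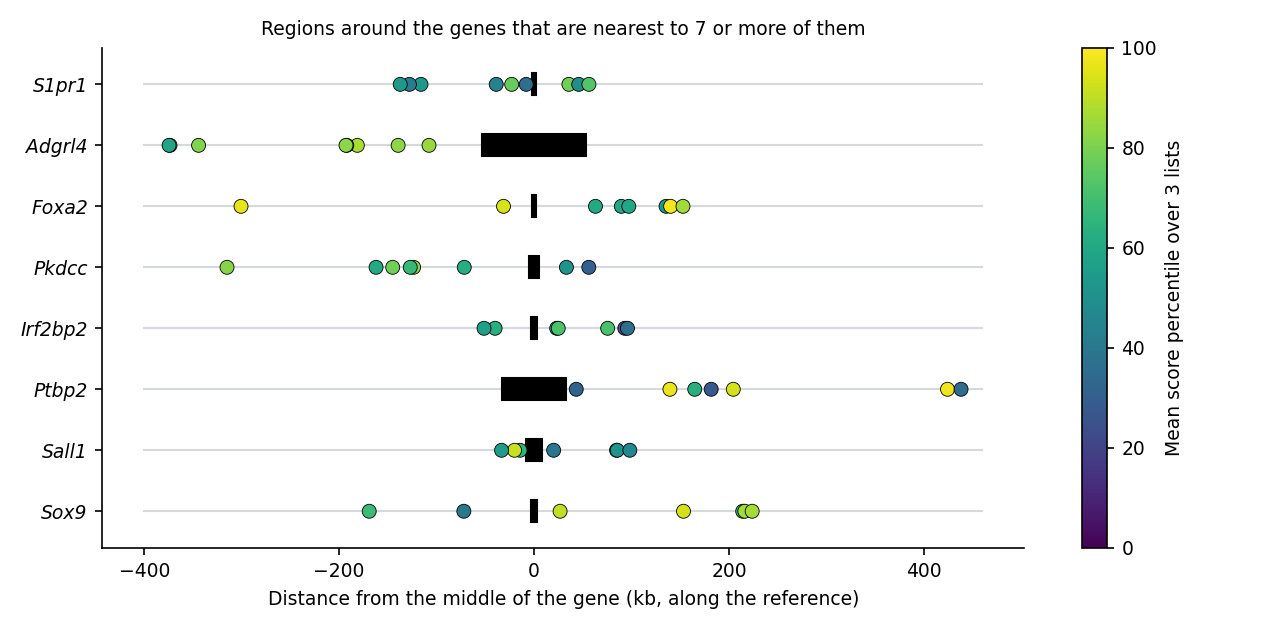
Positions of all-dose regions around the 8 genes that are nearest to 7 or more of them, as distance from the middle of the gene (kb). Black bars are gene bodies to scale, points are regions, and colour is the mean score percentile over the lists. Regions of Adgrl4 and Ptbp2 lie on 1 side only, and those of Foxa2 reach 98.7 on the percentile scale at 138 kb upstream.

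Linked groups, in which neighbours lie within just over 12 kb of each other, took in 373 of the regions (21.0%). There were 136 pairs, 31 groups of 3 and 2 groups of 4. Inside genes the share was 21.4%, and at gene ends 9.65%. A group of 4 lies between Cebpb and Ptpn1, a phosphatase gene, at chr2:167816988-167835247, and its scores ran from 6 to 32, from 7 to 19 and from 9 to 44. The other, on chromosome X upstream of Spin2f at 19.3 to 32.2 kb, had scores of 5, 7, 10 and 14 at 0.1 µM, of 9, 21, 23 and 25 at 0.5 µM and of 20 to 23 at 1 µM. The 0.1 µM entry had the lowest score, and also the lowest percentile within its list, in each of its 4 regions. Spin2f belongs to a family of closely similar gene copies, and how reads were placed among such copies was not stated. A further group of 3, 14.8 to 29.9 kb from Socs6, a suppressor of cytokine signalling, scored 63, 41 and 70 at its strongest.

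Within the same distance of a region between genes lay a region listed at fewer doses in 655 cases (36.8%), an all-dose region at a gene end in 117 (6.58%) and one inside a gene in 32 (1.80%). Noncoding genes hosted 305 regions (17.1%), nearly all of them long noncoding RNA genes (293). Gm32659, near Snap25 and Ankef1, held 5 regions with scores of 32 to 61, 8 to 42 and 14 to 126. The gene 2610035D17Rik, named above, held 5 and Gm45968, near Zpld1, held 4.

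For 13 lists of genes, the members that were the nearest gene of at least 1 region between genes were counted. Over all protein-coding genes off chromosome 15 this share was 5.62%. A nearest region was found for 1.20% of genes with under 50 kb of gap, 6.04% at 50 to 200 kb, 16.0% at 200 to 500 kb and 30.7% at 500 kb or more. The median gap on the sides of the genes is therefore given with each count (37.2 kb over all genes). No list was tested.

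Of 25 AP-1 and immediate early genes, 8 (32.0%) were nearest to 18 regions, with a median gap of 117 kb. Btg1, an antiproliferative gene, had a region 5.79 kb downstream (22, 6 and 28). Bach1, the repressor of antioxidant genes, had one at 11.9 kb (9, 6 and 20), Btg2 one at 14.1 kb (9, 5 and 10) and Ier5 one at 20.3 kb (12, 7 and 17). Raw scores fell in different orders among the 8 genes, as at Egr2 (19, 6 and 5) and Klf6 (5, 8 and 18). As their scale is not stated, these orders are not read as differences between doses. Jun, Fos and Atf3 were not nearest to any. Of the 8 genes, 4 had an all-dose region at an end too, and of all 25 genes of the list 9 did.

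Of 40 growth factor, Wnt and TGF-beta genes, 11 (27.5%) were nearest to 29 regions, but their median gap was 306 kb, the longest of all lists. Id1, an inhibitor of differentiation factors, had a region at 2.07 kb (7, 7 and 19), Klf5 at 2.71 kb (17, 4 and 13), Ccn1, a matricellular target of YAP, at 3.49 kb upstream (7, 15 and 12) and Smad7, the inhibitor of TGF-beta signalling, at 3.97 kb (5, 23 and 12). The order of the raw scores differed among these and is likewise not read as a difference between doses. Myc lies on chromosome 15 and was not counted.

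Of 28 hepatocyte transcription factor genes, 5 (17.9%, median gap 107 kb) were nearest to 16 regions. Beside Foxa2, they were Nr5a2, the gene of LRH-1, with a region 3.26 kb downstream (39, 33 and 38), Cebpb with 4 regions from 23.2 kb on (the nearest at 18, 21 and 37), Nr2f2 with 2 from 62.6 kb on (27, 14 and 26) and Zbtb20. Hnf4a and Cebpa were nearest to none. Of 42 genes of plasma proteins and liver metabolism, 2 (4.76%, median gap 30.9 kb) were nearest to 3 regions. These were Cps1, the first enzyme of the urea cycle, at 8.88 kb (31, 10 and 22), and Apob, the apolipoprotein of VLDL, at 54.1 kb (26, 7 and 9).

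Of 21 metal handling and heat shock genes, 3 (14.3%, median gap 46.5 kb) were nearest to 4 regions. All 3 were also listed at an end, as were 10 of the 21 genes of the list. Dnajb1, a cochaperone of HSP70, had one 5.34 kb upstream (29, 15 and 22), the zinc exporter gene Slc30a4 one at 15.3 kb (12, 9 and 20) and the iron exporter gene Slc40a1 one at 41.2 kb (21, 17 and 15). Of 24 NRF2 and oxidative stress genes only Hmox1, heme oxygenase 1, was nearest to any (4.17%, median gap 41.3 kb). It had 2 regions, the closer at 3.96 kb (chr8:75089461-75089852) with scores of 21, 17 and 12. Of 25 p53 and DNA damage genes, Mdm2, the ubiquitin ligase of p53, at 10.9 kb upstream (12, 18 and 32) and Btg2, counted above too, made 8% (median gap 23.5 kb).

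Of 21 genes of CTCF, cohesin and chromosome structure, 1 was nearest to a region (4.76%, median gap 36.6 kb), Hmgb1 at 26.1 kb upstream (23, 16 and 29). None of 16 AHR and xenobiotic metabolism genes and none of 30 Hox genes was nearest to any. The median gap was 36 kb for the AHR list and 6.71 kb for the Hox genes.

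Markers of other cell types were counted in the same way. None of them had an all-dose region at an end (13.4% of all genes), and none of the plasma protein and metabolism genes or the Hox genes did. Of 17 immune markers Ptprc was nearest to 1 region, at 127 kb (5.88%, median gap 34.3 kb). Of 18 neuronal markers 3 were nearest to any (16.7%, median gap 168 kb): Gad2 at 30.5 kb, Snap25 at 31.1 kb and Map2 at 41.9 kb. Of 18 stellate cell, fibroblast and endothelial markers 3 were as well (16.7%, median gap 89.0 kb), which were Col3a1 at 2.29 kb (14, 13 and 5), Col1a2 at 17.1 kb (12, 15 and 16) and Emcn at 190 kb (12, 10 and 8).

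Of the 6057 merged regions between genes off chromosome 15, those listed at all doses were 29.4%. The share was 31.1% inside genes and 47.2% at gene ends, and 35.4% over all merged regions off chromosome 15. Among the other regions between genes, 1152 were listed at 0.1 µM only, 1145 at 1 µM only and 443 at 0.5 µM only, while 1107 were shared by 0.1 and 1 µM. Their median merged widths were 240, 252, 236 and 373 bp, and 515 bp for those listed at all doses. A merged region spans every entry in it, so merged widths grow with the number of lists by construction. The single entries of regions listed at all doses had medians of 421, 334 and 432 bp in order of dose. These shares are set by the rule and by where each list ends, and are given as a description.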

How the data were processed

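ATAC-seq regions of Hepa-1c1c7 cells were used as deposited, as 1 list of regions per treated dose. The deposited score of a region is a whole number, 4 or higher, on an unstated scale. The submitters' processing notes name Bowtie2, Picard, MACS2 and the mm10 build, with no roles. The sources used here do not give thresholds, the use of the control, read shift, duplicate removal or pooling; nor do they say whether the libraries of 1 dose are separate cultures. From the lists, regions were merged, placed against a RefSeq gene table (GRCm38.p6, 21631 protein-coding genes) and described with Python 3.11.15, pandas 2.3.3 and numpy 2.4.6. Where a list had several entries in a merged region, the one with the highest score was used. Merging and placement were tested on simulated regions. Scores were ranked within a list. No test was made, as there are no replicate lists. Regions named were the 10 with the best mean percentile, the 5 farthest from a gene, the 5 largest linked groups (ties by mean percentile), those with the extreme width differences, and up to 4 nearest genes per list. The members, lists and the genes with most regions were chosen with earlier results of these data known. No genome sequence was used here, so motifs were searched in promoter windows only. The promoter table gave the strand for the nearest gene of 1332 regions. Alternatives were other gene limits, overlaps, parts of the lists, and pairs of lists.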

Additional observations from a re-analysis of the deposited data

How the results depend on the processing

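No paired analysis was possible because each dose has 1 list and no result comes from a test. Depth is unknown, so what it limits could not be measured. Of 44 values of the main results under other settings, 25 stayed and 19 moved. To stay meant to lie within 1.5 times the count or within the 95% binomial (Wilson) interval of the share. These intervals treat regions as independent, which regions of 1 list are not. They serve as a yardstick only and do not measure spread between replicates. The number of regions was 1022 at more than 10 kb from gene ends, 836 in the stronger 50% of each list, 732 in the wider 50%, and 2890 without the 0.5 µM list. The share of all-dose regions that lie between genes (28.1%) was 31.8% with ends of protein-coding genes only, 23.3% outside genes of every type, 25.2% and 16.1% beyond 2.5 and 10 kb, 29.5% with a reciprocal overlap of 50%, 22.9% in the wider 50% and 31.4% without the 0.5 µM list. The share of regions between genes listed at all doses (29.4%) was 52.6% with the reciprocal overlap, which counts only 0.5 µM regions, 27.7% in the stronger 50%, and 41.8%, 51.4% and 39.0% without the 0.1, 0.5 and 1 µM list, where fewer lists must agree. The share whose nearest gene was listed at an end (39.2%, with 13.4% of all genes) was 27.4% with the reciprocal overlap (9.93% of all genes), 25.5% in the stronger 50% (6.73%) and 32.5% in the wider 50% (8.45%), where fewer regions are left. It stayed 2.5 to 3.85 times the share of all genes in every setting run. That ratio sets a share of regions, which counts a gene for each of its regions, against a share of genes. Regions between genes listed at 1 or at 2 doses had a share of 31.4% each in the main setting, which was not computed under the others. Settings without a list were chosen after seeing the data. Of 66 other values, 41 stayed and 25 moved, where medians were held to a 95% interval from binomial ranks of the regions. The share in linked groups was 12.3% for 5 kb and 30.7% for 25 kb. Motifs in whole regions were not run, since no genome was used here.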
